A study of Mus musculus with 3 samples.

Results

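Olfr78, Olfr558 and Olfr545 are 3 odorant receptor genes of chromosome 7 that are grouped here as class I receptors for short-chain acids. They were found by name in the authors' table of receptor promoters, which gave 4 of its 1085 positions to them: 1 each to Olfr558 and Olfr545 and 2 to Olfr78, 13654 bp apart. The acid ligands themselves were not measured. The study mapped capped 5′ ends of receptor transcripts in the olfactory epithelium. It used RLM-RACE, a method that joins an RNA adapter to messages once their cap has been removed, so that products made from the adapter start where the transcript starts. The cDNA was primed within receptor coding sequence with degenerate primers, and the products were read on tiling arrays of receptor loci. There were 3 arrays, each made from a pool of 5 adult animals of strain C57/Bl6, 6 to 8 weeks old: Stringent (1 array) carried a product of nested PCR, and High Coverage (2 arrays) carried products made without nesting. The labels name no genetic change or treatment for either group, and no control array was used. Headers of the files name female input for High Coverage 1 and male input for High Coverage 2, and a difference between these arrays cannot be told apart from one between the sexes. In triplets of values below, the order is Stringent, High Coverage 1, High Coverage 2.

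An odorant receptor is a G protein-coupled receptor in the cilia of an olfactory sensory neuron, and each such neuron expresses very few genes of the family. Class I receptors are the evolutionarily older class, and in the mouse their genes lie together on chromosome 7. Many of them respond to carboxylic acids. A typical receptor transcript has 1 or more noncoding 5′ exons, spliced to a single exon that holds the coding sequence. RACE products primed there can therefore give signal at a start site, at exons on the way and at the beginning of the coding exon, with little between them. Olfr78 and Olfr558 are the mouse relatives of the human genes OR51E2 and OR51E1. Olfr78 responds to acetate and propionate and is also expressed outside the nose, in the carotid body and in blood vessels. Olfr545, once named S50, responds to carboxylic acids.

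The reference sequence tables matched 2 of the 3 genes, Olfr558 and Olfr545, and held none for Olfr78. The sequences are RefSeq's on build GRCm38.p6, which is not the mm9 build of the arrays, so the place of these starts relative to the array positions was not analysed here. Each line shows the 30 bases before the start of the gene model in lower case and its first 3 bases in capitals, because the gene models differ in what they begin with.
Olfr558, plus strand, chr7:102702293-102702325: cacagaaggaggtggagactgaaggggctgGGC
Olfr545, minus strand, chr7:102494771-102494803: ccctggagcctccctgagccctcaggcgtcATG
The model of Olfr545 began with ATG, the letters of a start codon, as did 685 of 944 receptor promoters in the table (72.6%), against 5.83% of all 32851 promoters. That of Olfr558 began with other letters.

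The 250 bases before the Olfr558 start are shown because a Stringent region lay at this gene's array position and its model did not begin with ATG.
Olfr558, plus strand, chr7:102702073-102702322: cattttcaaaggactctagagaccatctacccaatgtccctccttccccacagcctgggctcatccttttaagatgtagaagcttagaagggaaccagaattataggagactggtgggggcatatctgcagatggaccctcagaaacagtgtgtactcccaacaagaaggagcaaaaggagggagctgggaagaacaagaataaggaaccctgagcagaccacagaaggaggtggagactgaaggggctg
The TATA box core TATAAA was searched on both strands, as were the homeodomain core TAATTA and the palindrome of the Olf1/EBF site. None was found before either gene, so no base is in capitals, and this says only that these letters are not in the window. Of all promoters in the table, 12.4% held the first, 4.84% the second and 0.779% the palindrome in the same 250 bases, and of receptor promoters 39.4%, 18.1% and 0.424%. Since 72.6% of these receptor models began with ATG, as Olfr545 did, most of their windows precede a possible start codon. Such windows need not lie at a transcript start, so the receptor shares are no clean background for promoters. The Olfr558 sequence was 50% A or T and had 0 CG dinucleotides, against a median of 66% and 1 over receptor promoters.

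The value read at each position was the MAT score, which standardises the brightness of a probe against a model of its sequence and combines probes over a window, so that a score near 0 or below is background. The authors called a region where the score passed 2.52, 2.53 or 2.99 on the 3 arrays in this order. Within 100 bp, Stringent had a called region at 2 of the 4 positions, those of Olfr558 and the downstream Olfr78 position, against 61.7% of all 1085 named positions. High Coverage 1 had one at 1 of 4, Olfr545, against 36.4%. High Coverage 2 had one at 2 of 4, Olfr545 and the downstream Olfr78 position, against 43.6%. With so few positions these counts do not set the genes apart from the family. Regions that covered the position itself were found at 2, 0 and 1 of the 4 positions, against 57.8%, 25.1% and 28.7%. None of the 4 positions had a region on all 3 arrays. The share of all named positions with one on all 3 was not counted, so this is no result about the genes. With 1 array against 2 no exact permutation test can go below p = 0.333, so none was run and the arrays are given one by one. The authors' way of choosing the positions is unknown here, so a rise at a position may be part of that choice.

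**Figure D1:**
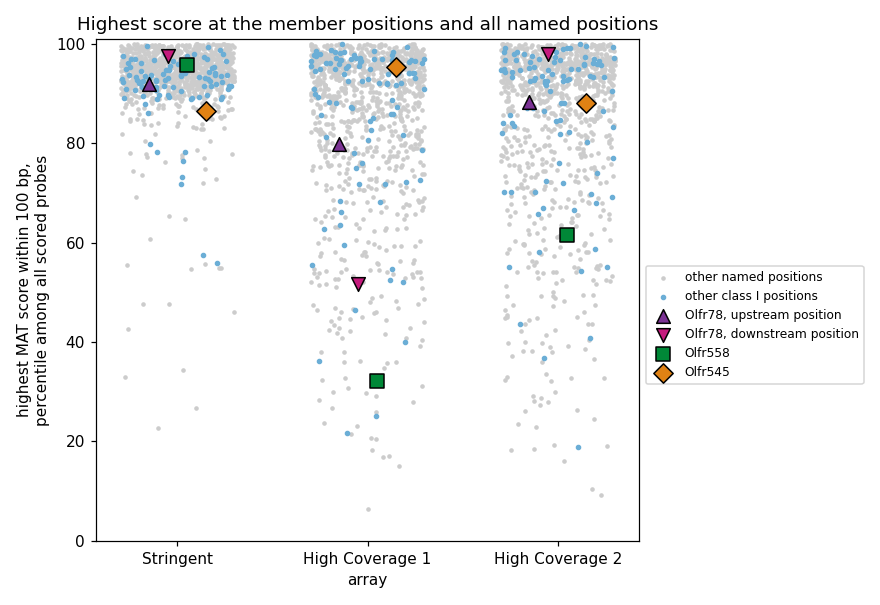
Highest MAT score within 100 bp of each named position, given as its percentile over the scored probes of that array (vertical axis), for the 3 arrays (horizontal axis). Large symbols are the 4 member positions, blue points other class I positions and grey points all others, spread sideways at random; Olfr558 stands at 95.8 on Stringent and at 32.1 and 61.5 on High Coverage.

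At the downstream Olfr78 position (chromosome 7, 109894697, minus strand) the highest score within 100 bp was 12.6 on Stringent, with -0.451 and 7.29 on the 2 High Coverage arrays. These values stood at the 97.5, 51.6 and 97.9 percentiles of all scored probes, and at the 80.6, 6.35 and 87.7 percentiles among named positions. Stringent and High Coverage 2 were thus high and High Coverage 1 was at its own background. The Stringent region ran from 71 bp upstream to 260 bp downstream (chr7:109894437-109894768), and that of High Coverage 2 from 25 bp upstream to 353 bp downstream. The first probe past the threshold lay at -9 bp on Stringent and at 37 bp on High Coverage 2. Such probes were searched from 100 bp upstream to 1 kb downstream, and 70.8% of named positions had one on Stringent and 63.2% on High Coverage 2. Over these positions the median was 22 bp on Stringent (quartiles 10 and 39.3) and 72 bp on High Coverage 2 (quartiles 13.3 and 262). The Stringent mean was 10.8 over the 150 bp downstream and 0.232 over the 150 bp upstream. The same pair of means was 5.82 and -1.38 for High Coverage 2, but -0.696 and -0.749 for High Coverage 1. High Coverage 1 reached no more than 2.21 anywhere in the place where the others had a region, below its threshold. High Coverage 1 minus High Coverage 2 was -46.3 percentile points here, where the 95th percentile of that gap over all scored positions, sign aside, was 34.3. This gap depended on the window: with 500 bp on each side the 2 arrays stood close together, at the 94.7 and 98.8 percentiles. Stringent minus the High Coverage mean was 22.7, without High Coverage 1 it was -0.461, and with 500 bp on each side it was 0.938.

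The upstream Olfr78 position (109908351, minus strand) had no called region within 100 bp on any array. Its highest scores were 1.37 on Stringent, with 0.421 and 1.28 on the 2 High Coverage arrays, at the 91.9, 79.8 and 88.2 percentiles of scored probes. Ranked among the named positions instead, they were low, at the 24.8, 26.5 and 37.0 percentiles. None of the 12 scored probes in that window passed a threshold. The window was thinly tiled, with 12 probes against 40 at each of the other 3 positions, and no scored probe lay from -251 to -3 bp or from 54 to 249 bp. No step across the position could therefore be computed. Stringent minus the High Coverage mean was 7.93 percentile points, and High Coverage 1 minus High Coverage 2 was -8.46. A region did follow a short way into the gene. On Stringent it ran from 397 to 625 bp downstream (chr7:109907726-109907954) with a highest score of 8.66, and on High Coverage 2 from 429 to 605 bp with 4.28. High Coverage 1 had no more than 0.566 there. Between 350 and 400 bp the Stringent mean was -1.33, and it rose to 5.33 between 450 and 500 bp and 7.41 between 500 and 550 bp. With the window widened to 500 bp on each side, 3, 1 and 3 of the 4 positions had a region, against 67.6%, 55.0% and 58.9% of all named positions.

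Set side by side, the 2 Olfr78 positions were ordered differently by the arrays. The upstream score was below the downstream one on Stringent (difference -11.3) and on High Coverage 2 (difference -6.01). On High Coverage 1 the upstream score was higher by 0.872, with both values under the threshold. In percentiles the differences were -5.58, 28.1 and -9.73. Widening the window to 500 bp turned the High Coverage 1 value to -12.7, with the downstream position higher on all 3 arrays. Neither position gave a called region on High Coverage 1.

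**Figure D2:**
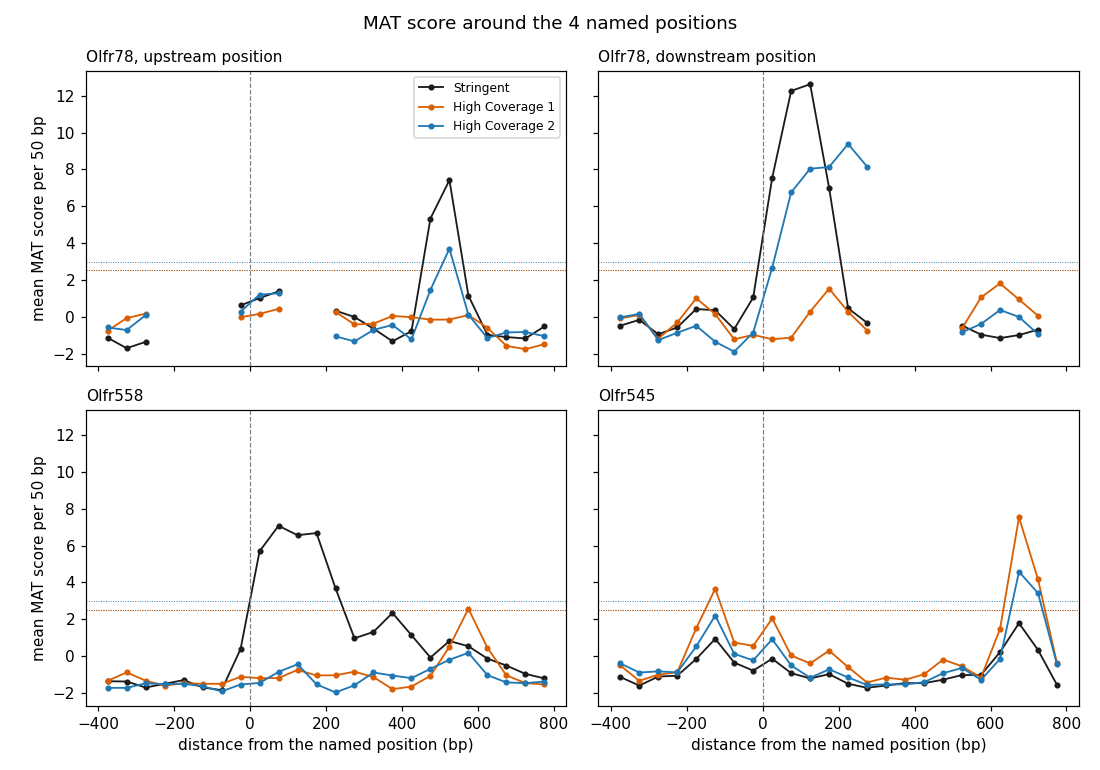
Mean MAT score per 50 bp (vertical axis) against the distance from the named position in the direction of transcription (horizontal axis, bp), 1 panel per position and 1 line per array, with gaps where no probe was scored. Dotted lines are the authors' thresholds; the upstream Olfr78 panel rises at about 500 bp and the downstream one at the position itself.

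Between and beyond the 2 positions, Olfr78 showed a string of separate places. From 1 kb upstream to 15 kb downstream, the upstream position had 5, 4 and 5 regions, and the downstream position had 2, 4 and 3. All named positions had medians of 3, 5 and 5. Below the downstream position no scored probe lay between 9558 and 11550 bp or between 11720 and 15000 bp. Below the upstream one none lay between 7166 and 9463 bp. No region could be seen in those stretches, so low counts are not readily set against the medians. Overlapping regions of different arrays were joined into 7 places for each Olfr78 position, 12 in all since 2 lay in both spans. Of those 12, the place from 5848 to 6869 bp below the upstream position was the only one called on all 3 arrays. Its highest scores were 17.1 on Stringent, with 17.9 and 10.2 on the 2 High Coverage arrays, each above the 98th percentile of scored probes. These scores were not at a shared peak but at 6228, 6742 and 6051 bp. The Stringent region ran from 5848 to 6375 bp. High Coverage 1 had its highest score in a region from 6315 to 6869 bp, beside another from 6049 to 6313 bp. High Coverage 2 had its own in a region from 5857 to 6192 bp, with another from 6360 to 6814 bp. The place held the highest point of the span on Stringent and on High Coverage 1, at these different positions. The reference gene table places the whole of another receptor gene, Olfr560, inside the interval of Olfr78, and the promoter table gives it the minus strand too. Olfr560 has no position in the authors' table, and whether this place is read from its transcripts or from those of Olfr78 cannot be told apart here.

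Stringent alone had 2 adjoining regions from 2194 to 2655 bp, with highest scores of 3.0 and 7.54, where the High Coverage arrays reached at most 0.325 and 0.251. Both High Coverage arrays had a region from 4865 bp on, with 3.49 and 3.03, where Stringent was at -0.404. Below the downstream position the strongest Stringent region ran from 3064 to 3653 bp and reached 13.9. The High Coverage arrays stood at 1.52 and 1.18 there. High Coverage 1 instead had a region from 3753 to 4094 bp with 8.47, where Stringent was at -0.494 and High Coverage 2 at -0.343. The signals of these arrays lay next to each other and did not overlap. Farther on, from 5088 to 5287 bp, the High Coverage arrays had 4.93 and 5.77 against 1.98 on Stringent. RefSeq lists 2 curated transcripts for Olfr78, and the arrays do not show which places were joined in one transcript.

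**Figure D3:**
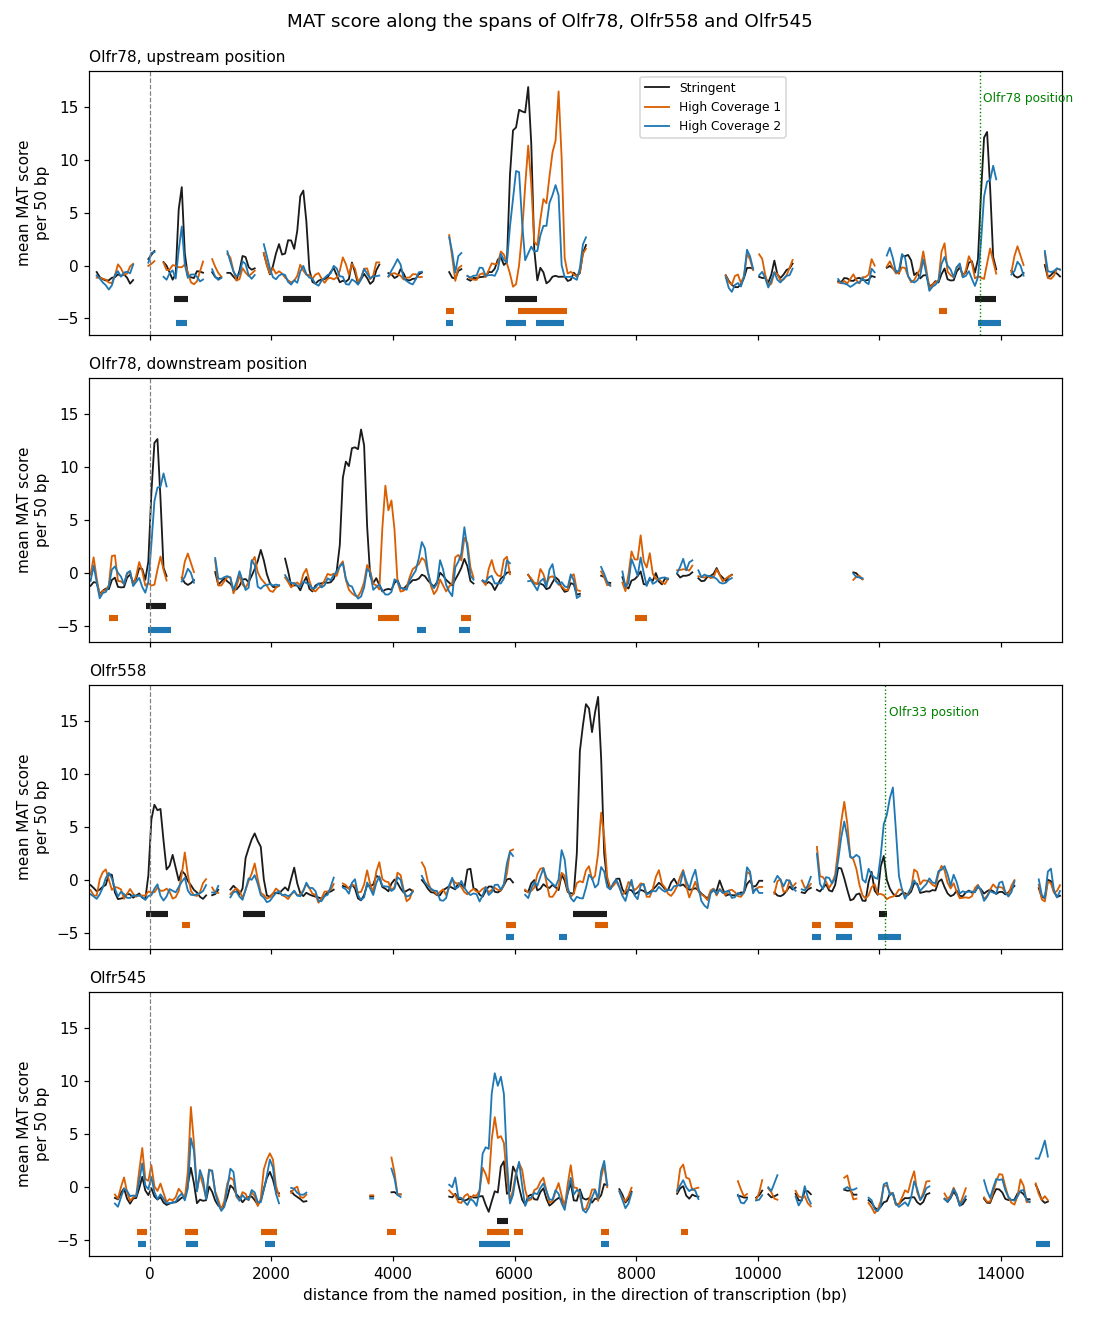
Mean MAT score per 50 bp (vertical axis) from 1 kb upstream to 15 kb downstream of each position (horizontal axis, bp, direction of transcription), 1 line per array, with gaps where no probe was scored and bars below for the authors' regions. Green dotted lines mark other named positions in the span. The tallest peaks are between 6 and 7 kb below the upstream Olfr78 position and at about 7 kb below Olfr558.

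Olfr558 (109850678, plus strand) had a region at its named position on Stringent and on neither High Coverage array. The highest score within 100 bp was 7.50 on Stringent, with -0.848 and -0.234 on the 2 High Coverage arrays, at the 95.8, 32.1 and 61.5 percentiles. Stringent exceeded the mean of the High Coverage arrays by 49.0 points, and High Coverage 1 minus High Coverage 2 was -29.4. Over all 1079 scored positions, Stringent minus High Coverage had a median of 4.03 points and a 95th percentile of 43.8, and the High Coverage arrays differed by a median of 4.33 points, with a 95th percentile of 34.3. Relative to the other named positions, Olfr558 stood at the 64.5 percentile on Stringent and at 1.99 and 11.0 on High Coverage. The Stringent signal began sharply. Its mean was -1.85 between 100 and 50 bp upstream, 0.386 from there to the position, 5.69 over the next 50 bp and 7.08 from 50 to 100 bp downstream. It stayed between 3.69 and 7.08 up to 250 bp and was 0.968 between 250 and 300 bp. The first probe past the threshold lay at -1 bp and the last of that run at 235 bp.

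Farther into Olfr558, Stringent had a region from 1526 to 1896 bp with a highest score of 4.65 and its strongest one from 6964 to 7528 bp with 17.6. High Coverage 1 also had a region at the second of these, from 7322 to 7545 bp, with 6.75, and High Coverage 2 reached 1.52 there and had none. High Coverage 1 had another from 522 to 660 bp with 3.63. Stringent reached 1.40 in that stretch and High Coverage 2 reached 0.694. Both High Coverage arrays shared places from 5852 bp (3.51 and 3.23), 10898 bp (4.73 and 3.49) and 11267 bp (7.55 and 5.89), where Stringent had no more than 1.81. The last of these lie near the position of Olfr33, another class I receptor, which points toward Olfr558 from 12100 bp downstream on the opposite strand. The place at the Olfr33 position itself, 11978 to 12360 bp, reached 9.64 on High Coverage 2, 2.79 on Stringent and -0.691 on High Coverage 1. The scores carry no strand, so signal in this stretch cannot be assigned to Olfr558 or Olfr33. Up to 10 kb, which leaves these places out, Olfr558 had 3, 3 and 2 regions, against 4, 5 and 5 over the full span. Of the 9 places in the full span none was called on all 3 arrays.

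At the Olfr545 position (109648887, minus strand) Stringent was the array with the least signal. The highest score within 100 bp was 0.251 on Stringent, with 2.49 and 1.26 on the 2 High Coverage arrays, at the 86.6, 95.4 and 88.0 percentiles of scored probes. Ranked among the named positions instead, these were at the 6.72, 68.7 and 36.7 percentiles. No probe in the window passed a threshold. The regions counted there on High Coverage lay upstream, from -207 to -45 bp on High Coverage 1 and from -192 to -64 bp on High Coverage 2, and both peaked at -125 bp, with 5.43 and 3.56. Stringent had 1.54 at that place. The mean score was lower downstream than upstream over 150 bp on all 3 arrays, by differences of -0.715, -1.14 and -0.983. At the 1022 named positions with enough probes the mean was higher downstream at 95.3% on Stringent, with 70.5% and 75.0% on the 2 High Coverage arrays. Over 50 bp the sign turned, to 0.649, 1.48 and 1.15. Stringent minus the High Coverage mean was -5.14 percentile points, and High Coverage 1 minus High Coverage 2 was 7.35. Olfr558 and the downstream Olfr78 position had a higher mean downstream on all 3 arrays over 150 bp, though over 50 bp High Coverage 1 turned to -0.0715 and -0.241.

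The next place of Olfr545 downstream was called on both High Coverage arrays, from 577 to 788 bp, with highest scores of 8.57 and 5.53. Stringent rose there as well, to 2.13, short of its threshold. A place from 1821 to 2092 bp had 4.69 and 3.31 on High Coverage and 2.31 on Stringent. Only the place from 5408 to 5931 bp was called on all 3 arrays, with 3.09 on Stringent and 7.11 and 11.2 on High Coverage. Over the span Olfr545 had 1 region on Stringent and 8 and 7 on High Coverage, against medians of 3, 5 and 5 over all named positions. The High Coverage counts equalled the upper quartiles of 8 and 7, and the lower quartile on Stringent was 2. Among the 7 were adjoining regions from 1900 to 1932 bp and from 1934 to 2057 bp. When each array was limited to its 3608 highest-scoring regions, the counts were 1, 4 and 3. Olfr544, a receptor for azelaic acid that comes next after Olfr545 in the direction of its transcription, has no position in the authors' table, so the extent of its own transcripts in this span was not analysed here.

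**Figure D4:**
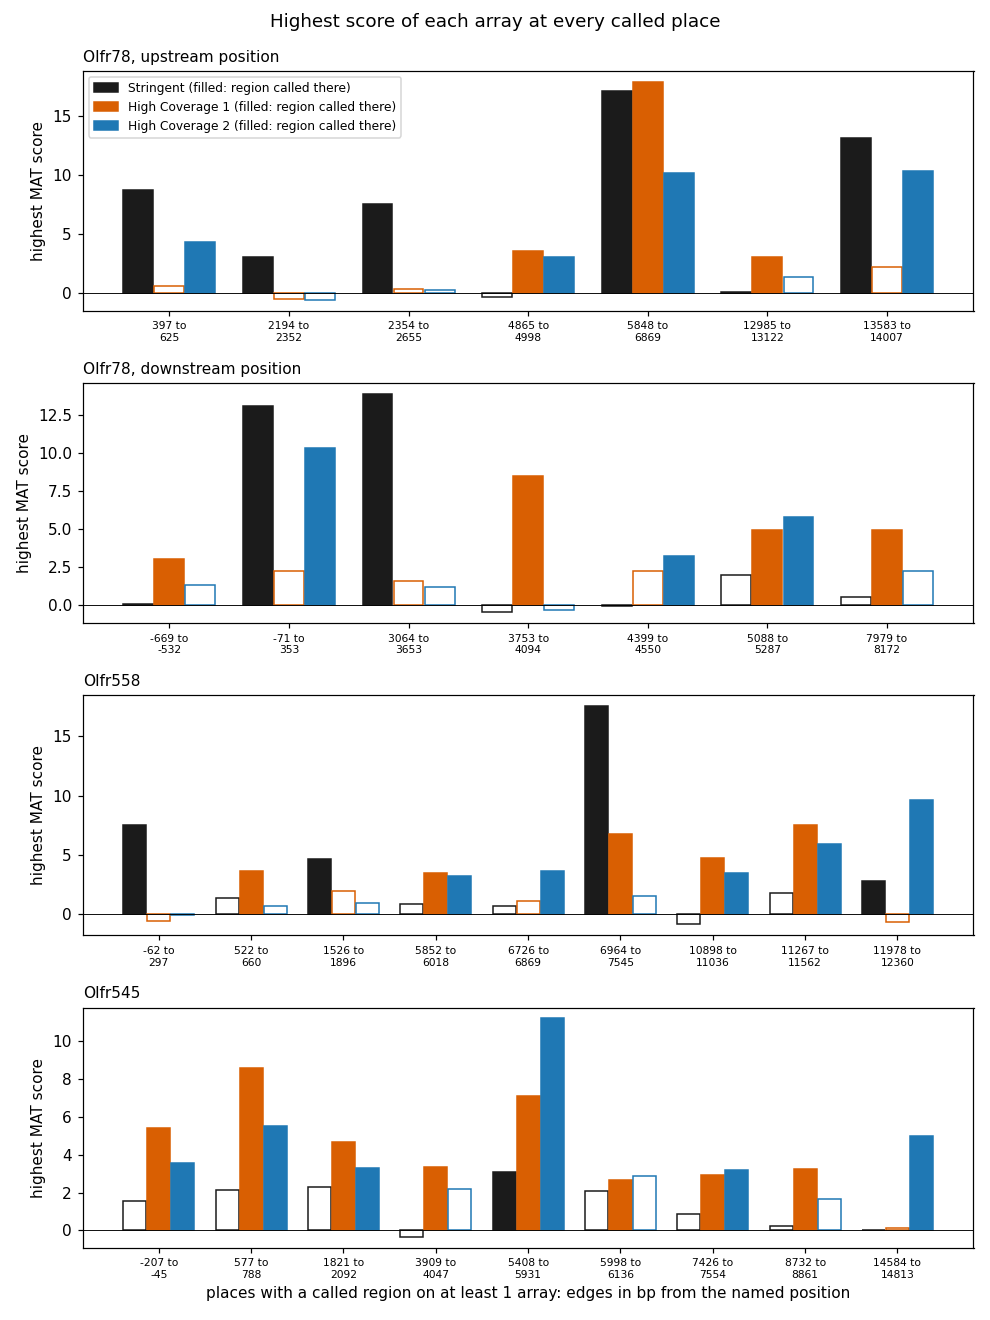
Highest MAT score of each array (vertical axis) at every place where at least 1 array had a called region, with the edges of the place in bp from the named position (horizontal axis); filled bars are arrays with a region there and open bars arrays without one. Filled bars of all 3 arrays stand together only from 5848 to 6869 bp below the upstream Olfr78 position and from 5408 to 5931 bp below Olfr545.

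The arrays were also compared probe by probe within each span. Across the 1813 scored probes of the Olfr545 span, Pearson's r was 0.802 between the High Coverage arrays, 0.684 between Stringent and High Coverage 1 and 0.518 between Stringent and High Coverage 2. Over the 2722 probes of the Olfr558 span these were 0.493, 0.301 and 0.0683, and over the 1536 probes of the downstream Olfr78 span 0.264, -0.0803 and 0.292. The 1923 probes of the upstream Olfr78 span gave 0.491, 0.239 and 0.551, so the spans of this one gene differed from each other as well. All scored probes of the arrays gave 0.740, 0.457 and 0.498. Neighbouring probes share the window of the score and are no independent points, so these values are descriptions of the spans.

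Among the 106 class I positions by gene number, 47 had a Stringent region within 100 bp, 39 a High Coverage 1 region and 42 a High Coverage 2 region. These were 44.3%, 36.8% and 39.6% of them, against 61.7%, 36.4% and 43.6% of all named positions. Their median percentiles were 93.0, 92.7 and 92.6, against 94.4, 91.3 and 92.4 over all named positions. Olfr558 on High Coverage 1 and the downstream Olfr78 position on that array were far below these medians. Positions were also ranked by the distance of their percentiles on the 3 arrays from those of each member. The nearest to Olfr558 was Olfr506, on chromosome 7, with 95.4, 30.7 and 62.0, followed by Olfr432 and Olfr826. Nearest to the downstream Olfr78 position were Olfr1356, the class I receptor Olfr651 and Olfr1299, and to the upstream one Olfr1305, Olfr1312 and Olfr828. Those nearest to Olfr545 were Olfr1377, Olfr965 and Olfr380. With 3 arrays such likeness is a description only.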

How the data were processed

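MAT scores per probe were deposited by the authors. Per the file headers each came from 1 array and no control, the bandwidth was 50, the gap limit 30 and the probe minimum 5. They are on a natural log scale per those headers and are not scaled between arrays. Regions, used as deposited, were called by the authors array by array, with an FDR of 0 percent in the headers. The thresholds stand for unlike p-values, 1.75e-09, 1.72e-06 and 2.97e-07, so counts of regions are not at a like cutoff. Coordinates are on mm9 according to the submitters' processing notes.

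A score of 0 on all 3 arrays (5.42% of 2313448 probes) was read as missing. Percentiles are among the 2188086 scored probes of an array. Overlap was at least 1 bp. Steps needed 5 probes on each side. All rows of the 3 names were used. The 3 nearest positions on each side and the 3 most alike by Euclidean distance were named by rule. Percentiles of nearest positions were given only for those picked after their values were seen. Class I was taken as Olfr543 to Olfr692, Olfr33, Olfr64 to Olfr69 and Olfr78. Olfr560 and the single places were named after their values were seen. The members and lists were chosen with earlier results of these data known. Cell type markers and sequence of the files' build were not analysed here. Precision is limited by the number of arrays, with no replicate of Stringent. Alternatives were other windows, summaries, scales, overlaps and spans, equally long region lists, and leaving out each High Coverage array. Steps and overlaps were tested on simulated data. Python 3.11.15, numpy 2.4.6, pandas 2.3.3 and matplotlib 3.10.9 were used.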

Additional observations from a re-analysis of the deposited data

How the results depend on the processing

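The counts of positions with a region, 2, 1 and 2 within 100 bp, were 3, 1 and 3 within 500 bp. At the position itself the High Coverage counts were 0 and 1, with at least 50% of the window covered they were again 0 and 1, and when every list was shortened to its top 3608 regions High Coverage 2 had 1. Stringent minus High Coverage kept its sign under other windows, the mean score and a median and MAD scale, but the downstream Olfr78 value was 0.938 points with 500 bp on each side. With the mean score it was 79.3 points for Olfr558 and -16.9 for Olfr545. In MADs it was 2.77 for the upstream and 25.3 for the downstream Olfr78 position, 19.3 for Olfr558 and -1.61 for Olfr545. Leaving out each High Coverage array gave 3.70 to 12.2 points for the upstream and -0.461 to 45.8 for the downstream Olfr78 position, 34.3 to 63.6 for Olfr558 and -8.81 to -1.47 for Olfr545. The downstream Olfr78 value, 22.7 points with both arrays, thus rested on High Coverage 1: without that array it was -0.461, which reversed it. Upstream minus downstream for Olfr78 was -26.4, 1.5 and -9.16 MADs on the 3 arrays, and on High Coverage 1 it reversed to -12.7 points with 500 bp on each side. The step over 50 bp reversed for Olfr545 on all 3 arrays (0.649, 1.48 and 1.15) and on High Coverage 1 for Olfr558 (-0.0715) and the downstream Olfr78 position (-0.241). The cause of these changes was not tested. A change was set against the SD of the 2 High Coverage arrays, a poor measure of error for Stringent. No paired analysis was possible because the labels name no pairing between the groups and Stringent has 1 array.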

Other observations

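Among the nearest named positions, Olfr556, which lies before Olfr558 (-37166 bp) and points the same way, had percentiles of 97.0 on Stringent, with 36.2 and 55.2 on the 2 High Coverage arrays. Like Olfr558 it had a region within 100 bp on Stringent and on neither High Coverage array. Olfr33, on the other side of Olfr558, stood at 93.5, 21.8 and 98.3, with a region on Stringent and High Coverage 2. The downstream Olfr78 position had regions on that same pair of arrays. Olfr564, 57263 bp beyond it, did too, at 99.5, 87.1 and 99.2. By contrast Olfr555 stood at 92.1, 96.7 and 95.7, with regions on both High Coverage arrays alone, as Olfr545 had, and so did Olfr543 at 92.4, 97.7 and 98.3. Other nearest positions did not follow these patterns. Olfr559, between Olfr33 and the downstream Olfr78 position, had a region on High Coverage 2 alone. Olfr561, between the upstream Olfr78 position and Olfr564, had none, like that Olfr78 position, and Olfr547 had none either. Olfr554 had regions on Stringent and High Coverage 1, and Olfr549 and Olfr566 on every array. The neighbours given with percentiles were singled out after their values were seen. Whether position in the cluster has any part in these patterns was not tested.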
